A study of Mus musculus with 35 samples.

Results

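The genes described here are 7 chemokine and chemokine receptor genes that draw T cells and related lymphocytes into tissue: the ligands Cxcl9, Cxcl10, Cxcl16, Ccl5 and Cxcl13 and the receptors Cxcr3 and Cxcr6. They were taken by name from the gene table of the series, where each name had 1 row, so that they are 7 of 21203 genes. RNA-seq was done on the left brain tissue around the treatment site of 34 mice, with 1 library per mouse. All mice were male C57BL/6NCrl without any stated transgene and were between 8 and 9 weeks old when the procedures began. Sham mice (n = 5) went through the procedure without the impact and received no treatment, and 2 of them were collected at week 1 and 3 at week 3. Injured mice had a closed head injury and, on day 5 after it, an injection into the left hippocampus of PBS, of mesenchymal stem cells (MSCs), or of IL-4 MSCs, which carry a synthetic mRNA for interleukin-4. Tissue was taken at 1 week post injury (wpi), 2 days after the treatment, from 5 mice of each treatment, and at 3 wpi, 16 days after it, from 4 PBS mice, 5 MSC mice and 5 IL-4 MSC mice. The MSCs were purchased primary cells of the same mouse strain, and the mRNA gives only a transient supply of IL-4. Since sham mice had no injection, injury and injection cannot be told apart in any comparison with sham. Mice are numbered from 0 within a group, as in the sample titles.

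Chemokines are small secreted proteins that bind G protein-coupled receptors on leukocytes and steer their migration. Cxcl9 and Cxcl10 are induced by interferons and act on Cxcr3, which activated T cells and NK cells carry. Cxcl16 is made as a membrane-bound protein by macrophages and dendritic cells, is released by the proteases Adam10 and Adam17, and acts on Cxcr6, a receptor of effector and tissue-resident T cells. Ccl5 is made by activated T cells, NK cells and macrophages and acts on receptors such as Ccr1 and Ccr3. Cxcl13 acts on Cxcr5 and is known for attracting B cells and follicular helper T cells. In the healthy brain parenchyma lymphocytes are few, and microglia are the main resident immune cells.

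The libraries held between 29838423 and 41554322 estimated counts. A level of 3 counts, taken as the lowest detectable one, corresponds to between 0.0722 and 0.101 CPM, which are counts scaled to the library total, and covers counting error only. Several of the 7 genes lie close to it. Cxcr3 had at most 14 counts in a mouse and was at or under 3 counts in 14 of 34 mice, and Cxcl13 was at or under 3 counts in 18. Cxcl16 had at least 41.6 counts in every mouse. In these bulk samples fewer cells of a type and less RNA per cell cannot be told apart. The labelled tissue is cortex, and the summed level of 8 cortical markers was between 1394 and 1819 CPM in every mouse. Tissue of the striatum, a neighbouring region, differed between mice: the summed level of its 13 markers was 505 to 879 CPM in the PBS mice and 693 to 3443 CPM in the IL-4 MSC mice at 3 wpi. Libraries of 3 mice stood apart in genes of neutrophils or other leukocytes, namely PBS mouse 2 and MSC mouse 2 at 1 wpi and MSC mouse 4 at 3 wpi. All mice of a treated group also carry 1 common number before the dash in their titles, and whatever that number stands for cannot be told apart from the treatment and week.

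Cxcl9 (ENSMUSG00000029417) and Cxcl10 (ENSMUSG00000034855) are neighbours on chromosome 5. In GRCm38 their genes span chr5:92321347-92328079 and chr5:92346638-92348889, both on the minus strand. The 250 bases upstream of each transcription start are printed because both genes rose with IL-4 MSCs over PBS at 1 wpi. They were read from RefSeq on GRCm38.p6, 5′ to 3′ on the gene's own strand, and matched 5 of the 7 genes by symbol. Cxcl16 and Ccl5, which also rose in that comparison, had no match and are not shown. Capitals mark 2 short motifs searched on both strands, the interferon-stimulated response element core (GAAANNGAA) and a kappaB core (GGNNTTTCC).
Cxcl9, chr5:92328080-92328329, minus strand: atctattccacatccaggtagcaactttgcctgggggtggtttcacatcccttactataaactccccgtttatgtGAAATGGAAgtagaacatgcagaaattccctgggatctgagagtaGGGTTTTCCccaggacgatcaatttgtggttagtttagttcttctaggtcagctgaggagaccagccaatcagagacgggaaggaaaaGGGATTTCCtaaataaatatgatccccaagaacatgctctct
Cxcl10, chr5:92348890-92349139, minus strand: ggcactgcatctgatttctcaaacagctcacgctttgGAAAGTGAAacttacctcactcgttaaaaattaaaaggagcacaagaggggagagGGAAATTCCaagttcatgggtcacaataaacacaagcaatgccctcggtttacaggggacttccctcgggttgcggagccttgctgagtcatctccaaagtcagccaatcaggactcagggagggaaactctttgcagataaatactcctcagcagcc
Cxcr6, chr9:123806227-123806476, plus strand: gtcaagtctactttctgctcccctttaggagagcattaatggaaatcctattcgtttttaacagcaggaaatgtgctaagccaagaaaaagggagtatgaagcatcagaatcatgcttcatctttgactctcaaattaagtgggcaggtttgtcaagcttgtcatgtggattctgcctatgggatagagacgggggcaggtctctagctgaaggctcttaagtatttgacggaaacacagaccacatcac
In Cxcl9 the interferon core GAAATGGAA lay 175 to 167 bases before the start, and kappaB cores lay at 130 to 122 and at 42 to 34 bases. In Cxcl10 the interferon core GAAAGTGAA lay 213 to 205 bases before the start and a kappaB core on the opposite strand at 158 to 150 bases. The Cxcr6 stretch, shown as a receptor of the same group, held neither, and the same was true of Cxcr3 and Cxcl13. Cxcr6 also rose with IL-4 MSCs over PBS at 1 wpi. Whether the motifs had a part in any rise was not tested. Another motif, the interferon-gamma activated site core (TTCNNNGAA), matched in none of the 5 stretches. Among 32851 mouse promoters of 300 bases, 8.56% held the interferon core, 8.30% the activated site core and 5.82% the kappaB core. These are matches of letters and not shown binding sites. The other members are Cxcr3 (ENSMUSG00000050232, chrX:101731535-101734269), Cxcl16 (ENSMUSG00000018920, chr11:70453983-70459984), Cxcr6 (ENSMUSG00000048521, chr9:123806475-123811760), Ccl5 (ENSMUSG00000035042, chr11:83525778-83530518) and Cxcl13 (ENSMUSG00000023078, chr5:95956951-95961068), all protein-coding.

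Group comparisons asked how injury with PBS, MSCs or IL-4 MSCs differed from sham and from each other at each week. They used edgeR's quasi-likelihood test in 1 fit of all libraries, with p-values adjusted by the Benjamini-Hochberg method over 17131 tested genes, and 6 of the 7 genes had enough counts to be tested. A gene is said to have risen or fallen where its adjusted p was under 0.05. At 1 wpi, 3 of the 6 genes (Cxcl10, Cxcl16 and Ccl5) were higher in PBS than in sham, where 8.73% of all tested genes were. With MSCs 4 of 6 were higher than in sham (Cxcl9 in addition), against 11.0% of all genes, and with IL-4 MSCs 6 of 6, against 18.4%. IL-4 MSCs exceeded PBS in 5 of 6 genes (all but Cxcr3), where 11.2% of all genes did, and exceeded MSCs in 4 of 6 (Cxcl10, Cxcl16, Cxcr6 and Ccl5), where 7.66% did. Between MSCs and PBS at 1 wpi 0 of 6 changed, and 0.123% of all genes changed in either direction. In that comparison 1 member, Ccl5, had an unadjusted p under 0.05, and DESeq2 called 0.

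At 3 wpi, PBS against sham showed 0 of 6 members changed, with 2 at an unadjusted p under 0.05 and 0 called by DESeq2, and 0.0292% of all genes changed in either direction. In MSCs 5 of 6 members (all but Cxcr3) were higher than in sham, where 1.11% of all genes were, and in IL-4 MSCs the same 5 were higher, where 2.76% of all genes were. With only the IL-4 MSC mice of 3 wpi and the sham mice in a fit, 2 of the latter 5 passed (Cxcr6 and Ccl5), Cxcl16 did not (adjusted p = 0.0579), and Cxcl9 and Cxcl10 were left out by the filter on low counts. Against PBS, 2 of 6 members rose with MSCs, where 0.0817% of all genes rose, and 2 of 6 rose with IL-4 MSCs, where 2.17% rose. In both comparisons they were Cxcr6 and Ccl5, and both comparisons share the same 4 PBS mice. IL-4 MSCs and MSCs differed in 0 of 6 members at 3 wpi, with 0 at an unadjusted p under 0.05 and 0 called by DESeq2, while 3.47% of all genes differed. From 1 to 3 wpi, 3 of 6 members fell with PBS (4.90% of all genes), 2 fell with MSCs (4.93%) while 1 rose (1.22%), and 4 fell with IL-4 MSCs (16.6%). Medians of the 6 log2 differences from PBS were 0.24 for MSCs and 1.46 for IL-4 MSCs at 1 wpi, and 1.84 and 1.55 at 3 wpi, while the medians over all tested genes were at most 0.01 in size.

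The groups were also compared by whether every mouse of a group exceeded every mouse of the other. IL-4 MSCs and PBS at 1 wpi did not overlap in 4 of 6 members, where 11.5% of all tested genes were higher in every mouse. At 3 wpi 2 of 6 members were higher in every MSC mouse than in every PBS mouse, where 0.817% of all genes were, and 2 of 6 in every IL-4 MSC mouse, where 1.56% were.

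**Figure D1:**
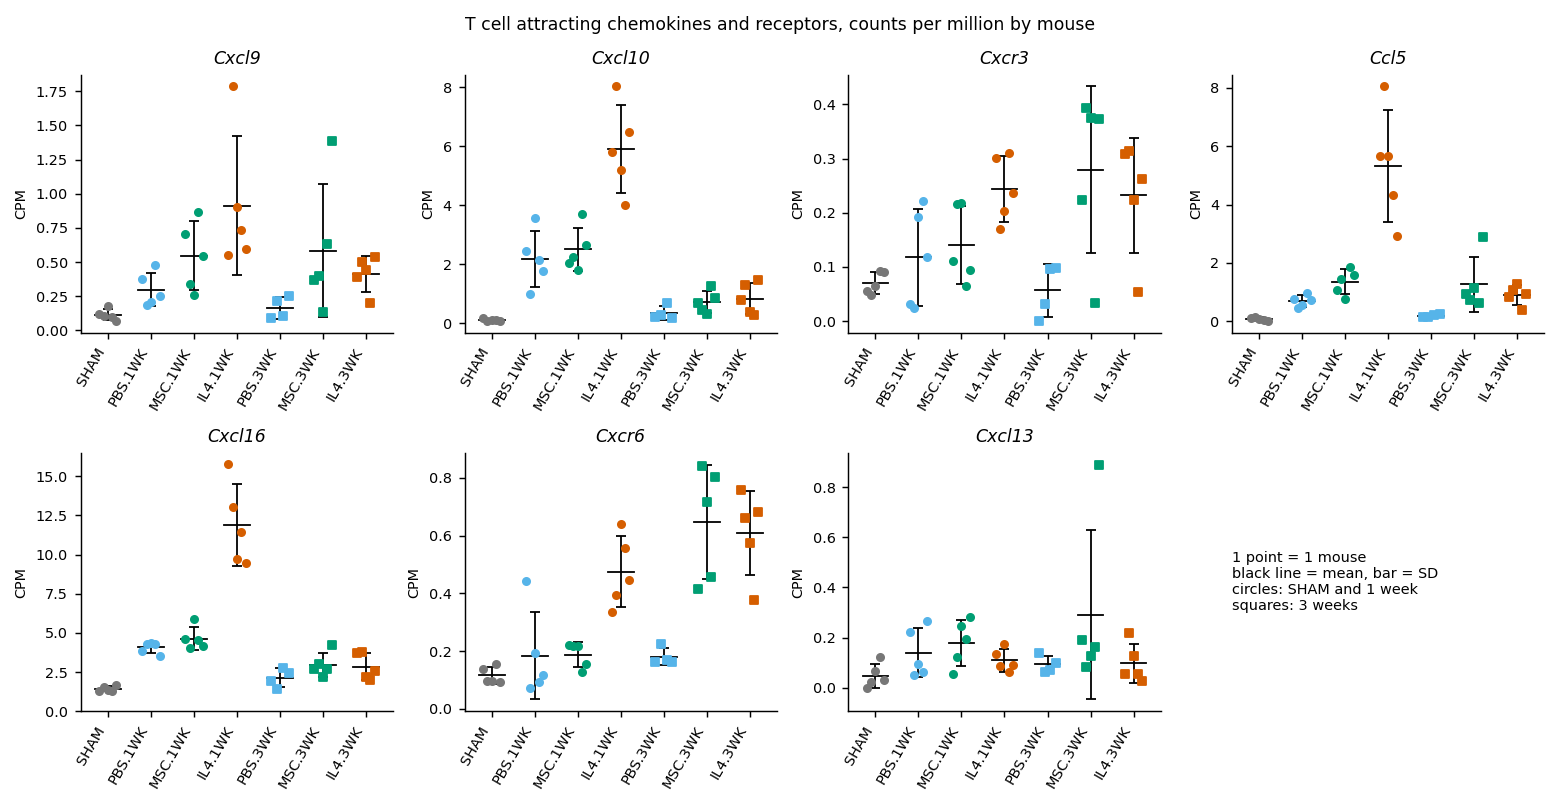
CPM of each of the 7 genes in each of the 34 mice (points, circles at 1 wpi and sham, squares at 3 wpi), with the group mean (line) and SD (bar). Cxcl10, Cxcl16 and Ccl5 have their highest values in IL-4 MSC mice at 1 wpi, whereas Cxcr6 lies above 0.37 CPM in every MSC and IL-4 MSC mouse at 3 wpi and at or under 0.225 CPM in every PBS mouse of that week.

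Levels of different genes can be set side by side in TPM, which take both transcript length and library size into account. In sham mice Cxcl16 had the highest mean level of the 7 genes, at 1.40 ± 0.385 TPM (SD, n = 5), followed by Ccl5 at 0.431 ± 0.356 TPM. The range of Cxcl16 over sham mice, from 1.04 to 1.83 TPM, lay above that of every other member. In IL-4 MSCs at 1 wpi the order was led by Ccl5 at 31.7 ± 10.9 TPM, then Cxcl10 at 13.0 ± 3.28 TPM and Cxcl16 at 11.3 ± 2.34 TPM. Ccl5 (17.5 to 47.0 TPM) did not overlap with Cxcl10 (8.67 to 17.4 TPM) there, whereas Cxcl10 and Cxcl16 (8.44 to 14.5 TPM) overlapped. With MSCs at 1 wpi the same 3 ligands led, with overlapping ranges, at 8.22 ± 2.70, 5.56 ± 1.76 and 4.44 ± 0.816 TPM. With PBS at 1 wpi the order was Cxcl10, Ccl5 and Cxcl16, between 4.98 and 3.83 TPM on average, and all 3 ranges overlapped. At 3 wpi Ccl5 led again in MSCs at 7.65 ± 5.70 TPM and in IL-4 MSCs at 5.39 ± 2.05 TPM, and Cxcl16 led in PBS at 2.02 ± 0.614 TPM. The next gene in the order overlapped with the leading one in PBS and IL-4 MSCs but not in MSCs, where Ccl5 was at 3.79 to 17.6 TPM and Cxcl16 at 1.90 to 3.66 TPM. The remaining 4 genes were under 1 TPM on average in every group, and neighbours among them in the order overlapped in every group except IL-4 MSCs at 3 wpi, where Cxcr6 (0.442 to 0.888 TPM) lay above Cxcl9 (0.149 to 0.392 TPM). Of these 4, Cxcr6 ranked first in sham and in all 3 groups at 3 wpi, with 0.769 ± 0.233 TPM in MSCs and 0.718 ± 0.170 TPM in IL-4 MSCs.

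**Figure D2:**
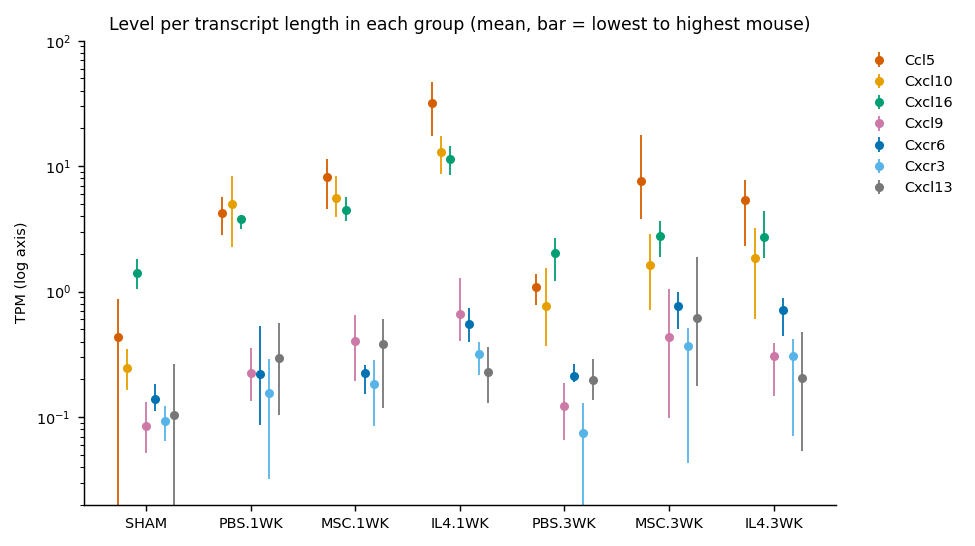
TPM (log axis) of the 7 genes in each group, as the mean (point) and the range from the lowest to the highest mouse (bar). Bars that reach the lower edge belong to groups with a mouse at 0, namely Ccl5 and Cxcl13 in sham and Cxcr3 in PBS at 3 wpi, and Ccl5 reaches its highest mean of 31.7 TPM in IL-4 MSCs at 1 wpi.

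Cxcl10 was near the lowest detectable level in sham mice and was higher at 1 wpi in every treatment. The 5 sham mice had 0.167, 0.0722, 0.0975, 0.123 and 0.0915 CPM, which are 3 to 6 counts each. PBS mice at 1 wpi had 2.44, 1.01, 3.58, 2.15 and 1.77 CPM, MSC mice 2.06, 2.26, 1.82, 3.71 and 2.66 CPM, and IL-4 MSC mice 5.80, 8.03, 5.18, 4.00 and 6.49 CPM. Every injured mouse lay above every sham mouse, PBS and MSC mice overlapped, and every IL-4 MSC mouse lay above every mouse of both other treatments. The log2 difference of PBS from sham was 4.23 ± 0.50 (SE; adjusted p = 3.79e-07), an 18.8-fold difference with a 95% interval of 3.25 to 5.21 on the log2 scale. IL-4 MSCs were 2.64-fold above PBS (log2 difference 1.40 ± 0.33, adjusted p = 0.00257) and 2.33-fold above MSCs (1.22 ± 0.33, adjusted p = 0.0125). MSCs differed from PBS by 0.18 ± 0.34 (adjusted p = 0.996), with a 95% interval of -0.48 to 0.85.

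By 3 wpi Cxcl10 had fallen in all treatments. PBS mice had 0.219, 0.290, 0.676 and 0.164 CPM, MSC mice 0.670, 0.449, 0.312, 1.27 and 0.862 CPM, and IL-4 MSC mice 0.784, 1.29, 0.383, 0.268 and 1.47 CPM. The 3 groups overlapped, and every MSC and IL-4 MSC mouse lay above every sham mouse. The fall from 1 to 3 wpi was -2.61 ± 0.45 on the log2 scale with PBS, -1.77 ± 0.38 with MSCs and -2.75 ± 0.36 with IL-4 MSCs, with adjusted p of 0.00024, 0.00256 and 3.03e-07. At 3 wpi the log2 difference from sham was 2.64 ± 0.56 with MSCs (adjusted p = 0.0103) and 2.89 ± 0.55 with IL-4 MSCs (adjusted p = 0.00296), the latter not testable with only those 2 groups in a fit. In PBS it was 1.63 ± 0.65 with an adjusted p of 0.844. Against only the 3 sham mice collected at week 3, the Cxcl10 call with MSCs was lost (adjusted p = 0.0999), and without MSC mouse 4 it was lost narrowly (adjusted p = 0.0508).

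Cxcl9, the companion ligand of Cxcl10, had a lower level per length at 1 wpi in every treatment. Sham mice had between 0.0673 and 0.179 CPM (median 0.103), and PBS mice at 1 wpi 0.377, 0.182, 0.210, 0.476 and 0.248 CPM. MSC mice at 1 wpi had 0.708, 0.338, 0.260, 0.869 and 0.547 CPM, and IL-4 MSC mice 0.549, 1.79, 0.899, 0.732 and 0.598 CPM. IL-4 MSC mouse 1 was the highest of all 34 mice, and IL-4 MSC mice overlapped with MSC mice but not with PBS mice. IL-4 MSCs exceeded PBS by 1.60 ± 0.44 on the log2 scale (adjusted p = 0.0103), which fell to 1.22 with an adjusted p of 0.0743 without IL-4 MSC mouse 1. The difference from sham was 2.22 ± 0.54 with MSCs (adjusted p = 0.00324) and 2.95 ± 0.51 with IL-4 MSCs (adjusted p = 2.44e-05). In PBS it was 1.35 ± 0.58 with an adjusted p of 0.132.

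At 3 wpi Cxcl9 was at 0.0878, 0.216, 0.103 and 0.254 CPM in PBS mice, at 0.368, 0.396, 0.132, 0.633 and 1.39 CPM in MSC mice, and at 0.388, 0.503, 0.443, 0.2 and 0.537 CPM in IL-4 MSC mice. MSC mouse 4 stood above the rest. The lowest MSC mouse lay within the sham range, and the lowest IL-4 MSC mouse lay just above the highest sham mouse. The log2 difference from sham was 2.36 ± 0.54 with MSCs (adjusted p = 0.0181) and 1.87 ± 0.55 with IL-4 MSCs (adjusted p = 0.0490). With IL-4 MSCs Cxcl9 fell from 1 to 3 wpi by 1.08 ± 0.42 (adjusted p = 0.0467). This call was lost with DESeq2 (adjusted p = 0.0572), with the striatum level as a covariate (0.164) and without IL-4 MSC mouse 1 of 1 wpi, when the fall was 0.70 (adjusted p = 0.249). It was also lost without mouse 2 of 1 wpi or mouse 0, 2 or 3 of 3 wpi (adjusted p from 0.0638 to 0.130). Both calls against sham depended on single mice. The first had an adjusted p of 0.0593 to 0.0638 without sham mouse 0, 1 or 3 and of 0.196 (log2 difference 1.74) without MSC mouse 4, and the second one of 0.0524 to 0.140 without any 1 of the 5 sham mice or without IL-4 MSC mouse 0, 2 or 4. Against PBS the differences of 1.84 ± 0.54 with MSCs and 1.36 ± 0.56 with IL-4 MSCs did not pass (adjusted p = 0.462 and 0.188).

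Cxcr3, the receptor of both ligands, is the least certain of the tested genes. Sham mice had 2 or 3 counts each, or 0.0481 to 0.0922 CPM, and PBS mice at 1 wpi had 1, 1, 6, 7 and 4 counts. IL-4 MSC mice at 1 wpi had 9, 6, 7, 10 and 8 counts, or 0.302, 0.170, 0.204, 0.310 and 0.237 CPM, and lay above every sham mouse. The difference from sham was 1.68 ± 0.56 on the log2 scale (adjusted p = 0.0175, 95% interval 0.59 to 2.78), and that from PBS was 1.04 ± 0.52 (adjusted p = 0.178). At 3 wpi PBS mice had 0, 1, 4 and 3 counts, MSC mice 7, 14, 12, 1 and 13, and IL-4 MSC mice 11, 10, 7, 2 and 10. In each of the latter 2 groups 4 mice lay above every PBS mouse and mouse 3 lay among them. The log2 differences from PBS were 2.24 ± 0.61 with MSCs and 1.95 ± 0.62 with IL-4 MSCs, with adjusted p of 0.313 and 0.0819.

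Cxcl16 rose with injury and injection at 1 wpi and was highest with IL-4 MSCs. Sham mice had 1.31, 1.56, 1.38, 1.28 and 1.64 CPM and PBS mice at 1 wpi 3.86, 4.31, 4.35, 4.31 and 3.51 CPM. MSC mice at 1 wpi had 4.58, 4.03, 5.87, 4.54 and 4.17 CPM and IL-4 MSC mice 15.8, 13.0, 9.70, 11.4 and 9.47 CPM. Sham, PBS and IL-4 MSC mice formed 3 ranges that did not overlap, and MSC mice overlapped only with PBS mice. PBS was 2.75-fold above sham (log2 difference 1.46 ± 0.19, adjusted p = 2.17e-06), and IL-4 MSCs were 2.85-fold above PBS (1.51 ± 0.17, adjusted p = 9.27e-08) and 2.52-fold above MSCs (1.33 ± 0.17, adjusted p = 1.17e-06). For MSCs against PBS the difference was 0.18 ± 0.18, with a 95% interval of -0.17 to 0.53.

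At 3 wpi Cxcl16 was at 1.95, 1.40, 2.76 and 2.46 CPM in PBS mice, at 2.67, 2.99, 2.19, 2.72 and 4.22 CPM in MSC mice, and at 3.72, 3.76, 2.19, 1.96 and 2.54 CPM in IL-4 MSC mice. All 3 groups overlapped. The fall from 1 to 3 wpi was -2.01 ± 0.18 on the log2 scale with IL-4 MSCs (adjusted p = 2.03e-10), -0.90 ± 0.20 with PBS (adjusted p = 0.00394) and -0.61 ± 0.18 with MSCs (adjusted p = 0.0374). The call with MSCs was lost with a replicate block (adjusted p = 0.0519), with only those 2 groups in a fit (0.0765) and without any 1 of 7 of the 10 mice, with -0.52 (adjusted p = 0.141) without MSC mouse 2 of 1 wpi. Levels remained above sham with MSCs by 1.03 ± 0.20 (adjusted p = 0.00439) and with IL-4 MSCs by 0.97 ± 0.20 (adjusted p = 0.00527, and 0.0579 with only those 2 groups in a fit). Of the 31-base stretches in the protein-coding transcripts of Cxcl16, 21.4% also occur in Zmynd15, a gene that overlaps it on the opposite strand, so that the counting could split reads between them. Zmynd15 was listed at 0.413 to 1.01 CPM in sham and 1.83 to 3.90 CPM in IL-4 MSC mice at 1 wpi. Whether it took part in the Cxcl16 values was not tested.

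Cxcr6, the receptor of Cxcl16, fell in no treatment between the weeks. Sham mice had 0.139, 0.0963, 0.0975, 0.154 and 0.0915 CPM (3 to 5 counts), PBS mice at 1 wpi 0.443, 0.0736, 0.192, 0.0948 and 0.118 CPM, and MSC mice 0.222, 0.216, 0.217, 0.129 and 0.157 CPM. IL-4 MSC mice at 1 wpi had 0.335, 0.396, 0.640, 0.558 and 0.445 CPM. They lay above every sham and MSC mouse, and PBS mouse 0 lay within their range. IL-4 MSCs exceeded PBS by 1.35 ± 0.32 on the log2 scale (adjusted p = 0.00315) and MSCs by 1.29 ± 0.32 (adjusted p = 0.00663). PBS and MSCs differed from sham by 0.59 ± 0.40 and 0.65 ± 0.39, with adjusted p of 0.395 and 0.289.

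At 3 wpi Cxcr6 was at 0.164, 0.225, 0.169 and 0.164 CPM in PBS mice (5 to 7 counts), at 0.415, 0.842, 0.718, 0.458 and 0.804 CPM in MSC mice (13 to 30 counts), and at 0.756, 0.659, 0.575, 0.376 and 0.681 CPM in IL-4 MSC mice (14 to 27 counts). Every MSC and IL-4 MSC mouse lay above every PBS mouse. Cxcr6 was 3.58-fold above PBS with MSCs (log2 difference 1.84 ± 0.34, adjusted p = 0.00914) and 3.36-fold with IL-4 MSCs (1.75 ± 0.34, adjusted p = 0.00552). With MSCs it rose from 1 to 3 wpi by 1.79 ± 0.31 (adjusted p = 0.000258), and with IL-4 MSCs the change was 0.41 ± 0.27 (adjusted p = 0.266). In PBS the week difference was 0.02 ± 0.39, with a 95% interval of -0.74 to 0.78. Both calls against PBS at 3 wpi were lost when only the PBS mice and the respective treated mice of 3 wpi were fitted (adjusted p = 0.400 and 0.163). With MSCs the call was also lost without PBS mouse 0 or 2 (adjusted p = 0.0876 and 0.0865) and without the 3 libraries that stood apart (0.0656), and with IL-4 MSCs when the striatum level was a covariate (log2 difference 1.84, adjusted p = 0.133).

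Ccl5 showed the largest fold of the 6 tested genes in IL-4 MSCs at 1 wpi. Sham mice had 0.111, 0.144, 0.0650, 0.0307 and 0 CPM (0 to 6 counts). PBS mice at 1 wpi had 0.760, 0.466, 0.544, 0.948 and 0.737 CPM, MSC mice 1.08, 1.45, 0.761, 1.87 and 1.60 CPM, and IL-4 MSC mice 5.66, 8.06, 5.67, 4.31 and 2.91 CPM. Each IL-4 MSC mouse lay above all mice of the other 6 groups, with the lowest at 2.91 CPM next to MSC mouse 4 of 3 wpi at 2.90 CPM, an order that was the reverse in TPM (17.5 and 17.6). IL-4 MSCs were 7.53-fold above PBS (log2 difference 2.91 ± 0.35, adjusted p = 2.21e-07) and 3.88-fold above MSCs (1.96 ± 0.33, adjusted p = 6.2e-05). From sham the log2 difference was 3.11 ± 0.57 with PBS (adjusted p = 0.000194), 4.06 ± 0.52 with MSCs (adjusted p = 8.45e-07) and 6.02 ± 0.48 with IL-4 MSCs (adjusted p = 8.47e-12, 95% interval 5.08 to 6.97). MSC and PBS mice overlapped, with a difference of 0.96 ± 0.37 (adjusted p = 0.994).

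At 3 wpi Ccl5 was at 0.137, 0.129, 0.217 and 0.229 CPM in PBS mice, at 0.926, 0.730, 1.12, 0.621 and 2.90 CPM in MSC mice, and at 0.812, 1.07, 1.28, 0.376 and 0.943 CPM in IL-4 MSC mice. Every MSC and IL-4 MSC mouse lay above every PBS mouse. The difference from PBS was 6.97-fold with MSCs (log2 2.80 ± 0.49, adjusted p = 0.00793) and 4.91-fold with IL-4 MSCs (2.30 ± 0.50, adjusted p = 0.0105). Without MSC mouse 4 the MSC value was 2.23 with an adjusted p of 0.0468, and without PBS mouse 0, 1 or 2 its adjusted p was 0.0876, 0.0504 or 0.0586. For IL-4 MSCs the adjusted p was 0.0611 without PBS mouse 0. When only the 2 groups compared were fitted, both Ccl5 calls were lost (adjusted p = 0.675 for MSCs and 0.163 for IL-4 MSCs). From 1 to 3 wpi Ccl5 fell by 2.52 ± 0.34 on the log2 scale with IL-4 MSCs (adjusted p = 6.15e-07) and by 1.90 ± 0.52 with PBS (adjusted p = 0.0229). The call with PBS was lost without PBS mouse 3 of 1 wpi or PBS mouse 0 or 1 of 3 wpi (adjusted p = 0.0574, 0.0858 and 0.0872). With MSCs the week difference was -0.06 ± 0.35 (95% interval -0.74 to 0.63), and it was -0.63 without MSC mouse 4 of 3 wpi.

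**Figure D3:**
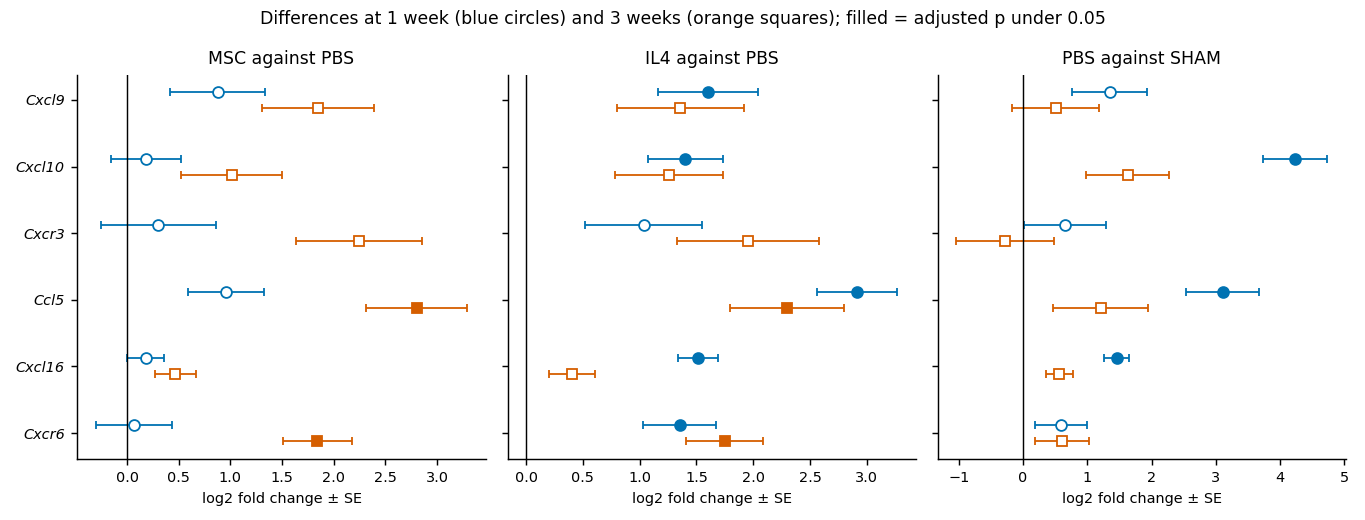
Log2 fold change ± SE from edgeR for the 6 tested genes at 1 wpi (circles) and 3 wpi (squares), for MSCs against PBS, IL-4 MSCs against PBS and PBS against sham, each panel on its own scale. Filled symbols have an adjusted p under 0.05: with IL-4 MSCs 5 genes at 1 wpi and Ccl5 and Cxcr6 at 3 wpi, with MSCs only Ccl5 and Cxcr6 at 3 wpi.

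Cxcl13 had too few counts to be tested. Its highest value was 31 counts (0.891 CPM) in MSC mouse 4 at 3 wpi, and no other mouse had more than 9 counts. The other 4 MSC mice of that week had 0.192, 0.0842, 0.125 and 0.163 CPM, next to 0.0644 to 0.137 CPM in PBS mice and 0.0262 to 0.220 CPM in IL-4 MSC mice. At 1 wpi the ranges were 0.0491 to 0.265 CPM with PBS, 0.0555 to 0.282 CPM with MSCs and 0.0621 to 0.175 CPM with IL-4 MSCs, and in sham 0 to 0.123 CPM. All groups overlapped. Its receptor Cxcr5 was at or under 3 counts in 31 of 34 mice and had its highest count, 7, in the same MSC mouse 4. In that mouse the scavenger receptor Ackr1 was at 52.0 CPM, next to 33.6 CPM or less in the other 33 mice, although 19.4% of its 31-base stretches also occur in Cadm3. The summed levels of the 8 B and plasma cell markers, 9 NK cell markers and 7 neutrophil markers there were 8.77, 6.05 and 21.8 CPM, the highest of the 3 wpi mice. The part of these cells in its chemokine values was not tested.

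Whether the difference between treatments itself differed between weeks was tested as an interaction. For MSCs against PBS, 0 of 6 members passed and 0.00% of all genes did, with 3 members at an unadjusted p under 0.05 and 0 called by DESeq2. For Cxcr6 the difference was 1.78 ± 0.51 log2 units smaller at 1 wpi than at 3 wpi, with an adjusted p of 1. For IL-4 MSCs against PBS, Cxcl16 passed: its difference was larger at 1 wpi by 1.11 ± 0.27 (adjusted p = 0.0105, and 0.0516 without PBS mouse 2 of 3 wpi), where 3.93% of all genes were higher. For IL-4 MSCs against MSCs, 3 members passed, where 5.96% of all genes did. Ccl5 differed by 2.46 ± 0.49 (adjusted p = 0.00112), Cxcl16 by 1.39 ± 0.25 (adjusted p = 0.000443) and Cxcr6 by 1.38 ± 0.42 (adjusted p = 0.0357). The Cxcr6 call was lost without the 3 libraries that stood apart (adjusted p = 0.0799) and with the striatum level as a covariate (0.0834), and without any 1 of 9 of the 20 mice (0.0518 to 0.0720). All 3 thus had a larger excess of IL-4 MSCs over MSCs at 1 wpi than at 3 wpi, when the differences were -0.51 ± 0.36, -0.06 ± 0.19 and -0.09 ± 0.26, with 95% intervals of -1.21 to 0.20, -0.43 to 0.30 and -0.61 to 0.43.

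Among 13 related genes, the other receptors, ligands and processing enzymes of these axes, 12 could be tested. In IL-4 MSCs at 1 wpi 5 of 12 exceeded PBS and 0 lay below it, with a median log2 difference of 0.30. Of all tested genes 11.2% were higher in these IL-4 MSC mice than in PBS, the share to set beside each list of this comparison below. Ccr3, a Ccl5 receptor best known from eosinophils, was at 1.04, 1.98, 1.19, 1.09 and 0.890 CPM in these mice and at 0.157 CPM or less in all others, and rose by 4.42 ± 0.46 (adjusted p = 1.58e-08). Ccr1, a Ccl5 receptor of myeloid cells, rose by 1.92 ± 0.52 (adjusted p = 0.00928), to between 4.15 and 7.88 CPM, but PBS mouse 2 at 4.38 CPM and MSC mouse 2 at 5.89 CPM lay within this range. The Cxcl16-releasing proteases Adam17 and Adam10 rose by 0.41 ± 0.05 and 0.20 ± 0.03 (adjusted p = 3.57e-07 and 3.72e-06). The related ligands Ccl3 and Ccl4, known from activated microglia and macrophages, differed from PBS by -0.53 ± 0.41 and 0.12 ± 0.44 (adjusted p = 0.429 and 0.892).

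Both of those ligands had risen with PBS over sham at 1 wpi, by 3.62 ± 0.54 and 3.73 ± 0.66 (adjusted p = 1.22e-05 and 0.000127), as had 6 of the 12 genes in all. Of all tested genes 8.73% had risen in that comparison. Cxcl11, the other Cxcr3 ligand, is annotated as a polymorphic pseudogene in this mouse genome and stayed between 0.0635 and 0.456 CPM in all 34 mice, with 0.52 ± 0.28 between IL-4 MSCs and PBS at 1 wpi (adjusted p = 0.216). Dpp4, a peptidase that trims Cxcr3 ligands, and the decoy or scavenger receptors Ccrl2, Ackr1 and Ackr2 differed from PBS by 0.18 to 0.37 in that comparison, with adjusted p from 0.184 to 0.625. At 3 wpi 0 of 12 passed against PBS with either cell treatment, with 1 at an unadjusted p under 0.05 for MSCs and 2 for IL-4 MSCs. Of all tested genes 0.0817% differed from PBS in either direction with MSCs and 2.94% with IL-4 MSCs. These are the shares to set beside each list that differed or did not differ from PBS at 3 wpi below. Ccr1 then had differences of 1.19 ± 0.78 with MSCs and -0.67 ± 0.94 with IL-4 MSCs (adjusted p = 0.906 and 0.780).

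**Figure D4:**
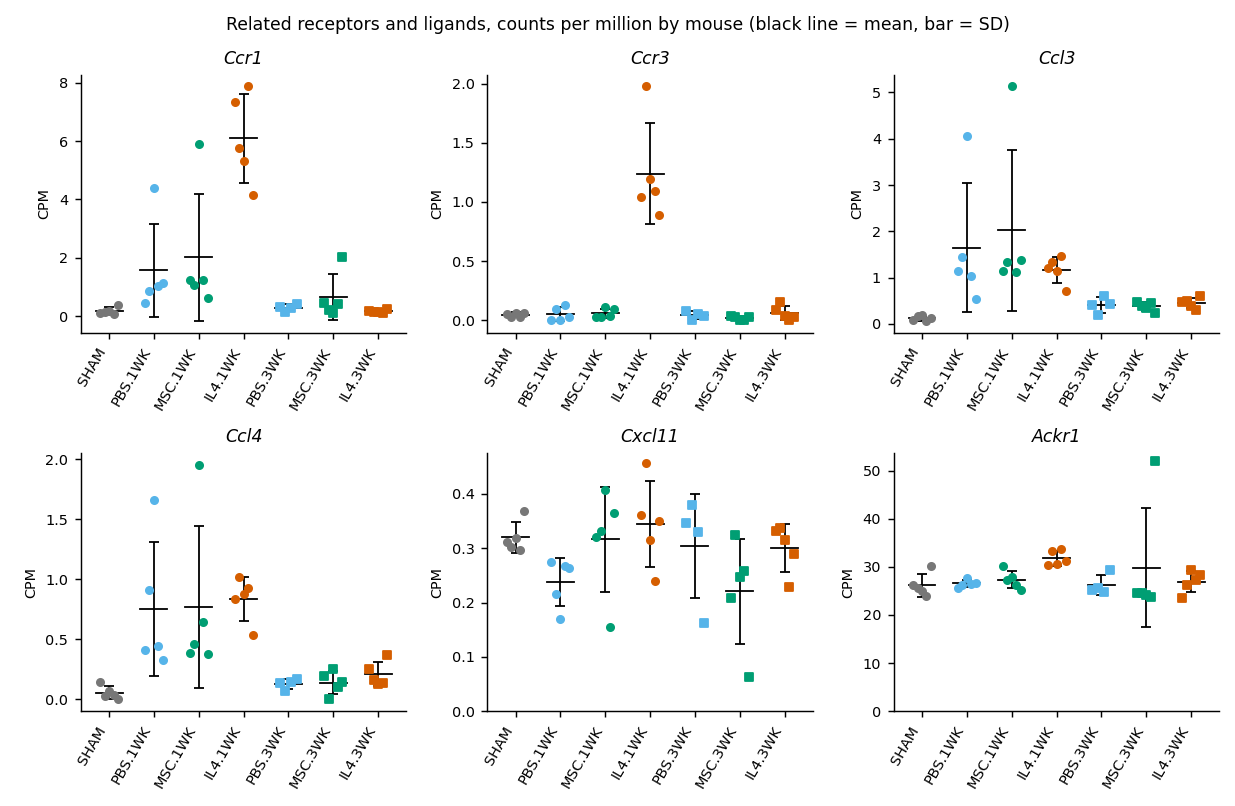
CPM of the Ccl5 receptors Ccr1 and Ccr3, the related ligands Ccl3 and Ccl4, Cxcl11 and the scavenger receptor Ackr1 in each mouse, with the group mean (line) and SD (bar). Ccr3 is at 0.890 CPM or more only in IL-4 MSC mice at 1 wpi, and PBS mouse 2 and MSC mouse 2 of that week carry the high values of Ccl3, Ccl4 and Ccr1 in their groups.

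Other chemokine axes that guide lymphocytes were listed too. Of 22 listed genes 17 could be tested, of which 2 were higher and 1 was lower with IL-4 MSCs than with PBS at 1 wpi, shares of the list close to the 11.2% and 6.16% of all genes. Cxcr4 rose by 1.69 ± 0.24 (adjusted p = 4.41e-06) while its ligand Cxcl12, made constitutively by stromal and endothelial cells, fell by 0.41 ± 0.08 (adjusted p = 0.000637). Ccl19, a ligand of Ccr7, rose by 0.82 ± 0.18 (adjusted p = 0.0016), and Ccr7, which naive T cells and dendritic cells carry, differed by 1.32 ± 0.48 (adjusted p = 0.0566). At 3 wpi 0 of 17 differed from PBS with either cell treatment, with 2 at an unadjusted p under 0.05 in each. Regulators of interferon and NF-kB signalling, which are known to act on Cxcl9, Cxcl10 and Ccl5, rose together at 1 wpi: with IL-4 MSCs 17 of 22 tested genes exceeded PBS and 0 lay below it, with a median of 0.61. Irf7, Stat2 and Irf9 rose by 2.78 ± 0.21, 0.72 ± 0.06 and 0.75 ± 0.08. The part of these regulators in the chemokine values was not tested. The cytokines Ifng, Ifnb1 and Tnf had too few counts to be tested. At 3 wpi 0 of the 22 differed from PBS with either cell treatment, with 7 at an unadjusted p under 0.05 for MSCs and 5 for IL-4 MSCs, and Irf7 differed by 0.30 ± 0.28 with MSCs and 0.85 ± 0.27 with IL-4 MSCs (adjusted p = 0.971 and 0.0799).

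Lymphocyte markers differed between the groups as well, and they are given beside the chemokines because their part in the chemokine and receptor values was not tested. The summed level of 17 T cell markers was 13.0 to 17.7 CPM with PBS and 20.8 to 28.5 CPM with IL-4 MSCs at 1 wpi, and 14.3 to 17.8 CPM with PBS, 20.5 to 28.3 CPM with MSCs and 23.7 to 35.8 CPM with IL-4 MSCs at 3 wpi. Sham mice had 13.5 to 20.7 CPM. These sums are led by genes with many counts, some of them named after their values were seen. Over all mice the median count was 130 for Trbc2, 108.5 for Zap70, 86.3 for Cd4 and 73.6 for Cd3d. It was 5 for Cd3e and Cd3g and 3.5 for Cd2. The highest count of Cd4 in a mouse was 711. How far the sums follow T cells was not tested. At 1 wpi 5 of 17 exceeded PBS with IL-4 MSCs, among them the adhesion receptor Cd2 (3.35 ± 0.64, adjusted p = 0.000267) and Trbc2 (0.67 ± 0.18, adjusted p = 0.00757). At 3 wpi 3 of 17 were higher with MSCs (0.0817% of all genes) and 5 with IL-4 MSCs (2.17%). Cd3g, a chain of the T cell receptor complex, was at 0 to 0.0644 CPM in PBS mice, at 0.192 to 0.862 CPM in MSC mice and at 0.134 to 0.644 CPM in IL-4 MSC mice. Its log2 differences were 3.99 ± 0.68 and 3.90 ± 0.68 (adjusted p = 0.0073 and 0.00345), against at most 2 counts per PBS mouse. Cd8a, the coreceptor of cytotoxic T cells, was at 0.415 to 0.588 CPM in PBS mice and at 0.948 CPM or more in every MSC and IL-4 MSC mouse, with differences of 1.92 ± 0.27 and 1.67 ± 0.27 (adjusted p = 0.00108 and 0.00265).

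The summed level of 9 NK cell markers was 3.97 to 11.2 CPM in IL-4 MSCs at 1 wpi, 0.827 to 1.80 CPM with PBS and 1.10 to 1.97 CPM with MSCs. At 3 wpi it was 1.74 to 4.50 CPM with IL-4 MSCs, and MSC mouse 4 at 6.05 CPM lay within the range of IL-4 MSCs at 1 wpi. Over all mice the median count was 21.6 for Eomes and 6 or less for each other marker of this list. The part of Eomes in these sums was not tested. At 1 wpi 6 of 8 tested markers were higher with IL-4 MSCs than with PBS. Gzma, a protease of cytotoxic granules, was at 1.84, 4.64, 3.11, 3.01 and 1.10 CPM in IL-4 MSC mice and at 0.402 CPM or less in every other mouse, and rose by 6.33 ± 0.54 (adjusted p = 2.69e-10). Klrb1c, the NK1.1 receptor, Prf1, the pore-forming perforin, and Nkg7, a cytotoxic granule protein, rose by 3.06 ± 0.54, 2.31 ± 0.43 and 3.00 ± 0.58. At 3 wpi 1 of 8 was higher with MSCs (0.0817% of all genes) and 2 of 8 with IL-4 MSCs (2.17%). In both Nkg7 rose, by 5.03 ± 0.91 and 4.84 ± 0.92 (adjusted p = 0.00914 and 0.00551) against PBS mice with at most 1 count, and the MSC call was lost without the 3 libraries that stood apart (adjusted p = 0.0709). The other marker called with IL-4 MSCs, named after its value was seen, was the transcription factor Eomes, with 2.48 ± 0.49 (adjusted p = 0.00634) at 3 wpi and 0.87 ± 0.43 (adjusted p = 0.174) at 1 wpi. At 3 wpi Klrb1c differed from PBS by -0.67 ± 0.95 and -0.74 ± 0.94 (adjusted p = 0.979 and 0.755). The defining NK cell marker Ncr1 had too few counts to be tested.

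**Figure D5:**
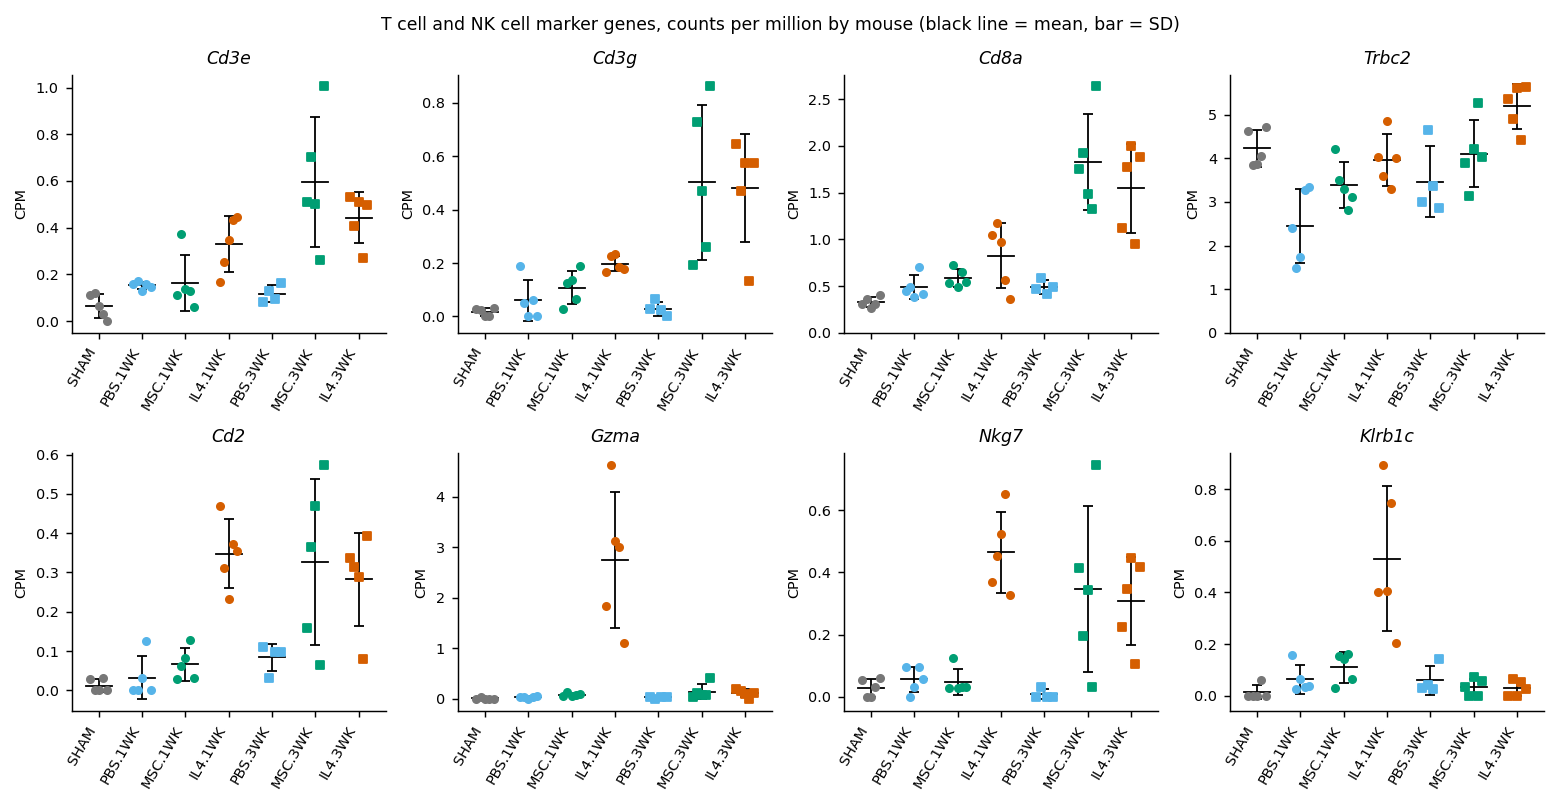
CPM of the T cell markers Cd3e, Cd3g, Cd8a, Trbc2 and Cd2 and the NK cell markers Gzma, Nkg7 and Klrb1c in each mouse, with the group mean (line) and SD (bar). Gzma and Klrb1c are highest in IL-4 MSCs at 1 wpi, and Cd3g and Cd8a have their highest means with MSCs and IL-4 MSCs of 3 wpi.

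Macrophage and microglia markers, whose cells also make Cxcl16, exceeded PBS for 5 of 8 genes with IL-4 MSCs at 1 wpi. Their summed level was 392 to 476 CPM against 281 to 349 CPM, and Adgre1, the F4/80 antigen, and Cd68 rose by 1.59 ± 0.14 and 1.34 ± 0.16 (adjusted p = 2.57e-10 and 1.24e-07). P2ry12, Tmem119 and Itgam, named after their values were seen, did not pass. They differed by -0.13 ± 0.09, 0.01 ± 0.08 and 0.00 ± 0.14 (adjusted p = 0.405, 0.929 and 0.991). In the same comparison 3 of 7 dendritic cell markers rose, among them Clec10a by 2.12 ± 0.22 (adjusted p = 8.3e-09), as did 5 of 9 markers of stromal cells such as the injected ones, with Col3a1 by 2.27 ± 0.30 (adjusted p = 1.06e-06). The dendritic markers Flt3 and, named after their values were seen, Zbtb46, Xcr1 and Clec9a did not pass. They differed by 0.05 ± 0.09, -0.09 ± 0.08, 0.05 ± 0.16 and 0.35 ± 0.37 (adjusted p from 0.512 to 0.868). In sham mice Flt3 had 384 to 511 and Zbtb46 398 to 590 counts, next to 4 to 13 for Clec9a. Of 5 tested B cell markers, 1 rose (Cd22, 1.07 ± 0.15, adjusted p = 3.15e-06), and of 5 tested neutrophil markers 1 (Retnlg, 5.10 ± 0.58, adjusted p = 7.33e-08). The neutrophil markers Cxcr2, S100a8 and S100a9 did not pass, at 0.16 ± 0.12, -0.68 ± 0.73 and -0.50 ± 0.79 (adjusted p = 0.426, 0.600 and 0.740). Ly6g and Elane, named after their values were seen, had too few counts to be tested. At 3 wpi MSCs differed from PBS in 0 of 34 tested markers of these 5 lists, with 7 at an unadjusted p under 0.05. IL-4 MSCs differed from PBS in 3 of them, where 2.94% of all tested genes differed. These were Adgre1 at 0.59 ± 0.16 (adjusted p = 0.0324) and the dendritic cell marker Flt3 at -0.39 ± 0.10 (adjusted p = 0.0222), as well as the stromal marker Nt5e, named after its value was seen, at 0.73 ± 0.18 (adjusted p = 0.0213). With IL-4 MSCs at 3 wpi all 13 striatum markers were higher than in PBS, such as Pde10a by 2.05 ± 0.38 (adjusted p = 0.00433), while 0 of 8 cortical and 0 of 8 hippocampal markers passed. At an unadjusted p under 0.05 there were 3 cortical markers and 7 hippocampal ones, and the median log2 difference of the 8 hippocampal markers was -0.77, next to 2.10 for the 13 striatum markers. Against sham, 1 of the 8 hippocampal markers fell with IL-4 MSCs at 3 wpi (Prox1, named after its value was seen, by 0.62 ± 0.18, adjusted p = 0.0439), where 1.52% of all tested genes fell. The part of these tissue differences in the chemokine values was not tested beyond the striatum covariate. With the striatum level as a covariate the Ccl5 difference of IL-4 MSCs from PBS at 3 wpi was 3.09 (adjusted p = 0.0126).

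Genes whose log2 CPM followed each member most closely over the 34 mice are given as a description, since the mice share groups and libraries. Cxcl10 was followed by Zbp1, Gbp2 and Ifi204 (Pearson's r 0.94, 0.94 and 0.93), which are interferon-induced genes. Cxcl9 was followed by Ccl5, H2-Q7 and Iigp1 (0.86, 0.83 and 0.83) and Ccl5 by Nlrc5, H2-Q7 and H2-D1 (0.93, 0.93 and 0.92), of which the H2 genes encode major histocompatibility proteins of class I and Nlrc5 their transactivator. Cxcl16 was followed by Cyba, Capg and Ncf4 (each 0.97), where Cyba and Ncf4 are parts of the phagocyte oxidase. For the receptors, T and NK cell markers were among the nearest genes: Cxcr6 was followed by Cd3g, Cd3e and Nkg7 (0.89, 0.84 and 0.81), and Cxcr3 by Gimap4, Acap1 and Nkg7 (0.79, 0.78 and 0.77).

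The same measure was taken on each mouse's deviation from its group mean, which leaves out the differences between groups. Cxcl16 was then nearest to Ikbke, Lyz2 and Cd300lb (0.84, 0.83 and 0.82), Cxcl9 to B2m, H2-Q7 and H2-K1 (0.71, 0.70 and 0.69), Cxcl10 to Gbp2, Gbp6 and Rnf213 (each 0.67) and Cxcr3 to Cd2, Acap1 and Klrd1 (0.71, 0.70 and 0.66). For Cxcr6 and Ccl5 the leading genes within groups were Vmn1r6 at 0.75 and Thrsp at 0.69. Between ligand and receptor, Cxcl16 and Cxcr6 had an r of 0.31 over all mice and 0.01 within groups, Cxcl10 and Cxcr3 0.37 and 0.08, and Cxcl9 and Cxcr3 0.45 and -0.03. The ligands followed each other more closely over all mice, with 0.90 for Cxcl10 and Cxcl16, 0.88 for Cxcl16 and Ccl5 and 0.85 for Cxcl10 and Ccl5, and with 0.34, 0.30 and 0.27 within groups. The counts of Cxcr3, Cxcr6 and Cxcl9 behind these values are sparse. With a prior count of 0.5 in place of 2 in log2 CPM, 5 of the 12 sets of 3 nearest genes were the same. Within groups Cxcr3 then shared 1 of its 3 genes (Acap1, with AI467606 and Steap4 in place of Cd2 and Klrd1) and Ccl5 shared 1 (Thrsp, behind Gbp8).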

How the data were processed

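RNA-seq of 34 mouse libraries was analysed from the deposited gene table. Per the labels and the study's methods, the authors trimmed reads with cutadapt 2.4 (quality check with FastQC 0.11.8), quantified them with kallisto 0.46 against protein-coding transcripts of GENCODE, and deposited estimated counts without normalization and TPM for every gene and library. Columns of the authors' own comparisons, which hold fold changes and p-values from sleuth 0.30 in R 3.6.1, were not used. A PBS mouse of 3 wpi excluded by the authors for anomalous transcript counts is not analysed here. The label gives the tissue width as 2 mm around the injection site.

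Estimated counts were rounded and tested with edgeR 4.0.16 (R 4.3.3; quasi-likelihood F-test, TMM, filterByExpr) in 1 fit of 7 groups with 15 comparisons and 3 tests of differences between weeks. All tests were two-sided, SE is the log2 fold change over the root of F, and 95% intervals are normal ones computed from the SE. CPM are estimated counts scaled to the library total, and log2 CPM used a prior count of 2. The script was tested on simulated data. Alternatives were RLE size factors, no filter, DESeq2 1.42.0, only the groups compared, a replicate block, a striatum covariate, a fold threshold, same-week sham mice, leaving out each mouse and, chosen after seeing the data, leaving out 3 libraries. No litter or batch is stated for the mice, and p-values measure the spread between mice. They do not cover anything tied to the title number that all mice of a treated group share. All replicate pairs differed by more than sampling noise (chi-square per gene 3.23 to 51.0 in 66 pairs).

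The 7 members and all gene lists were chosen with earlier results of these data known. Named genes are the members, all related genes, from each other list at most the 4 with the lowest adjusted p in IL-4 MSCs against PBS at either week or MSCs against PBS at 3 wpi, and the 3 genes most like each member by each measure. Gene positions are those of the GRCm38 annotation in GENCODE, and promoters are from RefSeq on GRCm38.p6. Some genes counted in these lists are not reported here by name.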

Additional observations from a re-analysis of the deposited data

Results flagged for a closer look

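Of 49 sets of a gene in a group, 2 held a mouse far from the others of its group, and chance flags about 1 in 20 such sets. Cxcr3 in IL-4 MSC mouse 3 at 3 wpi was at 0.0537 CPM (2 counts), below the other 4 mice. Cxcr6 in PBS mouse 1 at 3 wpi was at 0.225 CPM (7 counts), above the other 3 mice, all of which had 5 to 7 counts.

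Differences between treatments that differed between weeks by edgeR's interaction test were those of IL-4 MSCs against PBS for Cxcl16, at 1.11 on the log2 scale, and of IL-4 MSCs against MSCs for Cxcl16 (1.39), Cxcr6 (1.38) and Ccl5 (2.46). In each the excess of IL-4 MSCs was larger at 1 wpi.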

How the results depend on the processing

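Of 18 counts of genes called, all were within 1.5 times under RLE size factors, no filter on low counts, a fold threshold, DESeq2 and the replicate block. Same-numbered mice deviated together only weakly (r between -0.30 and 0.41, median 0.022, in 99 pairs), next to -0.46 to 0.44 in 396 pairs of other numbers. These values cannot tell whether same-numbered mice shared anything beyond the number, which the labels do not state. With the replicate block the calls of Cxcl9 for IL-4 MSCs against sham at 3 wpi (adjusted p = 0.0522) and of Cxcl16 between weeks with MSCs (0.0519) were lost. With only the groups compared in a fit, 0 members passed for MSCs and 0 for IL-4 MSCs against PBS at 3 wpi (Ccl5 adjusted p 0.675 and 0.163), and 2 for IL-4 MSCs against sham at 3 wpi. The striatum covariate left 1 for IL-4 MSCs against PBS at 3 wpi, same-week sham mice left 3 for MSCs against sham at 3 wpi, and leaving out the 3 libraries that stood apart left 1 for MSCs against PBS at 3 wpi.

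Leaving out each mouse in turn gave 4 to 5 members for IL-4 MSCs against PBS at 1 wpi, 0 to 2 for MSCs and 1 to 2 for IL-4 MSCs against PBS at 3 wpi, 3 to 6 for MSCs and 4 to 5 for IL-4 MSCs against sham at 3 wpi, 2 to 3, 2 to 3 and 3 to 4 for the weeks within PBS, MSCs and IL-4 MSCs, and 0 to 1 and 2 to 3 for the week tests of IL-4 MSCs against PBS and MSCs. MSC mouse 4 gave the 3, and PBS mice 0 and 2 of 3 wpi the 0 for MSCs. The week test of Cxcl16 for IL-4 MSCs against PBS was lost without PBS mouse 2 of 3 wpi (adjusted p = 0.0516). Of the members' log2 differences under all alternatives, 1231 kept direction and call, 69 lost their call, 1 gained it and 5 changed sign, all of Ccl5 with MSCs at 3 against 1 wpi (0.02, 0.02, 0.08, 0.08 and 0.10, range -0.63 to 0.10). Depth limits Cxcr3 and Cxcl13 most: without the filter on low counts Cxcl13 passed in no comparison (lowest adjusted p 0.0608).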
